A study of Rattus norvegicus with 6 samples.

Results

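Hmgcs1, Sqle, Idi1, Fdps, Cyp51, Dhcr7, Srebf2 and Insig1 are sterol-regulated genes, and their expression was compared between rats whose dams received nicotine and control rats, in the pituitary gland. They were taken by gene symbol from the count tables of all libraries, so that 8 genes of the 24546 with a count in at least 1 library are described. Of these, 6 encode enzymes that build cholesterol and 2 encode proteins that control the pathway, and no receptor for cholesterol uptake is among them. Total RNA came from male Sprague-Dawley offspring at 11 weeks of age, with 3 rats per group and 1 library per rat. The dams of the nicotine group carried a 28-day osmotic mini-pump with nicotine tartrate at 6 mg/kg/day, and those of the control group carried a pump with saline. The pump was placed during pregnancy, and the dams gave birth before its 28 days were over. Whether it was then removed is not given in the sources used here, so that exposure may have gone on after birth. Sprague-Dawley rats are outbred, and the litter of each rat is not given in the sources used here, so that the spread within a group may hold differences between litters.

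Cells make cholesterol from acetyl-CoA through mevalonate, isoprenoid diphosphates, squalene and lanosterol. When sterols in the endoplasmic reticulum run low, the transcription factor SREBP2, the product of Srebf2, is released from that membrane, cut in the Golgi and sent to the nucleus, where it switches on the enzymes of the pathway. Insig1 encodes a protein that holds SREBP2 back while sterols are plentiful, and it is itself a target of SREBP2, as Srebf2 is. Cholesterol is a building block of the secretory granules and plasma membranes of the hormone-releasing cells of the anterior pituitary.

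SREBP2 is known to bind sterol regulatory elements in promoters next to boxes for the factor NF-Y. Promoter windows of 250 bases before the annotated start were therefore searched on both strands for TCACNCCA, the core of a sterol regulatory element, and for CCAAT, the NF-Y box. The sequences are those of RefSeq on the rat build GRCr8, which differs from the build rn7 of the counts, and 7 of the 8 genes matched an entry. Sqle is the one without. CCAAT was found in 5 of the 7 windows, against 34% of 33469 promoters, and TCACNCCA in 1 of the 7, against 3.24%. CACGTG, the E-box, which overlapped no other motif there, was found in 1 of the 7, that of Insig1, against 5.59% of promoters, and GGGCGG, the GC box, in 6 of the 7, against 30.5%. Shown here are the window of Srebf2, the gene whose groups did not overlap, those of Idi1, Insig1 and Cyp51, which moved together between libraries, and that of Fdps, which did not move with them. Capitals mark CCAAT or its reverse complement ATTGG, and TCACCCCA. Each is written 5′ to 3′ on the strand of its gene. The Srebf2 window lies at chr7:115543057-115543306 on the plus strand, inside the span of the gene, since another annotated start lies further upstream. That of Idi1 lies at chr17:66547525-66547774 on the minus strand, that of Fdps at chr2:176804817-176805066 on the minus strand, and that of Cyp51 at chr4:30991443-30991692 on the plus strand. For Insig1, 207 bases at chr4:8057813-8058019 on the minus strand are shown, which end 44 bases before the start.
Srebf2: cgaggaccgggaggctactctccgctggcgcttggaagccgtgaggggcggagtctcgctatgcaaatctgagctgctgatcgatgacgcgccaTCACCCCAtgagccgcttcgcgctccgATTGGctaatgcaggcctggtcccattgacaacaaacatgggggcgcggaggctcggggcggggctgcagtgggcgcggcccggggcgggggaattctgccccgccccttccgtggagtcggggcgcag
Idi1: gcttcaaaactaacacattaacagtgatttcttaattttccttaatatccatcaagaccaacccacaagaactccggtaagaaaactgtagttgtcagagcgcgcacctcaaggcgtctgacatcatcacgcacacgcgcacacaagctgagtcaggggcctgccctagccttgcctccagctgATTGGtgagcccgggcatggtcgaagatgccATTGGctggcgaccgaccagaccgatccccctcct
Insig1: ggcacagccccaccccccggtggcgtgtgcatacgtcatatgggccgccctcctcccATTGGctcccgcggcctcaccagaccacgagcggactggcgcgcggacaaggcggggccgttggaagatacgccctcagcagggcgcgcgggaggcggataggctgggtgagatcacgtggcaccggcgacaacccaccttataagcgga
Cyp51: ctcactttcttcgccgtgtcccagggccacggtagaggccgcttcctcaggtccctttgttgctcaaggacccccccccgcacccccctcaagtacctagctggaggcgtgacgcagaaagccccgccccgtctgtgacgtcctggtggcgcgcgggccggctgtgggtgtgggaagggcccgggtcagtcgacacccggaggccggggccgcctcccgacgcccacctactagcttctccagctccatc
Fdps: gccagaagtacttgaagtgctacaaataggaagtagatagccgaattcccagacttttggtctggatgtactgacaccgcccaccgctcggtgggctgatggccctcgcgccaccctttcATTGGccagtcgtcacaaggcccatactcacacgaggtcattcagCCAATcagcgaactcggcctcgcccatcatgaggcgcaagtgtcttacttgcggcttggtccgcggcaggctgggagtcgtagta
In the Srebf2 window the TCACCCCA began 156 bases and the ATTGG 129 bases before the start. Idi1 held 2 ATTGG, at 66 and 35 bases, and Fdps held an ATTGG at 130 bases and a CCAAT at 85 bases, while the windows of Cyp51 and Dhcr7 held neither. Thus genes with like profiles over the libraries, such as Idi1 and Cyp51, differed in these letters. Such a match describes the letters in a window and does not show a bound site. Nor does a window without a match show that the gene lacks a site, since only these exact letters and these bases were searched.

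Depth was 28318383 to 85977002 counts per library, and the libraries labelled nicotine held more counts than those labelled control at each replicate number. In the study's own list of read totals the control libraries are the deeper ones. That list also gives each nicotine library fewer reads than the counts held here under that label. Whether the groups are exchanged in one of the sources was not tested, and every sign given here would then be reversed. All directions given here thus rest on the labels of the libraries. Nicotine 2 lay furthest from the other libraries, at a mean distance of 90.8 in log2 expression against 72.0 to 80.7. Markers of anterior pituitary cells, such as hormone genes, summed to 114219 to 176813 CPM (counts scaled to the size of each library) in the nicotine group and to 146455 to 160041 CPM in the control group, and 12 of 12 were tested. Markers of testis germ cells, looked at because the labels' extraction protocol speaks of testis, summed to 0.0217 to 0.0849 CPM, and 0 of 7 passed the filter on low counts. Those of steroid-making cells summed to 0.317 to 0.889 CPM. Of the other cell types, markers of meninges and fibroblasts summed to 328 to 794 CPM with nicotine and 899 to 1082 CPM in controls, with no overlap. The sums of the remaining lists overlapped, though the signs within a list were mostly alike. Log2 fold changes of nicotine over control were positive in 7 of 7 endothelial and 8 of 8 smooth muscle markers. They were negative in 8 of 8 macrophage and 7 of 7 blood cell markers. Of the markers of posterior lobe and glia, 5 were positive and 3 negative. Over all genes tested, 8853 of 17292 were positive. Endothelial markers summed to 161 to 254 CPM and 125 to 164 CPM, smooth muscle markers to 52.2 to 229 CPM and 56.2 to 69.3 CPM, macrophage markers to 131 to 278 CPM and 227 to 304 CPM, blood cell markers to 3098 to 9723 CPM and 8108 to 16305 CPM, and markers of posterior lobe and glia to 219 to 297 CPM and 188 to 302 CPM. Tnp2, Acrv1 and Ddx4 of the germ cell list were at 0 in every library, and no marker of another list was. In bulk tissue, fewer cells of a type and less RNA per cell cannot be told apart, and the part of these cell types in the values of the sterol genes was not tested.

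To ask whether exposure of the dams was followed by a change of the sterol genes in the adult pituitary, nicotine and control libraries were set against each other with the quasi-likelihood test of edgeR. All 8 genes passed the filter on low counts. To be called, a gene needed a fold change over 1.5 and an adjusted p under 0.1, and 0 of the 8 were called by edgeR or by DESeq2. The background is low as well, with 0.00578% of 17292 genes called by edgeR and 0.347% of 17876 genes by DESeq2. At an unadjusted p under 0.05, 1 of the 8 genes, Srebf2, passed in edgeR, against 5.63% of all genes, and the same gene was the 1 of 8 whose groups did not overlap, against 11.3%. Log2 fold changes of nicotine over control lay between -0.32 for Insig1 and 0.52 for Srebf2, with a median of 0.17 over the 8 genes and 0.0079 over all genes tested. The sign was positive in 5 genes and negative in 3. The median of the 8 genes rested on single libraries, since it was -0.18 without nicotine 1, -0.0038 without control 3, 0.10 without nicotine 2 and 0.34 without control 2.

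**Figure D1:**
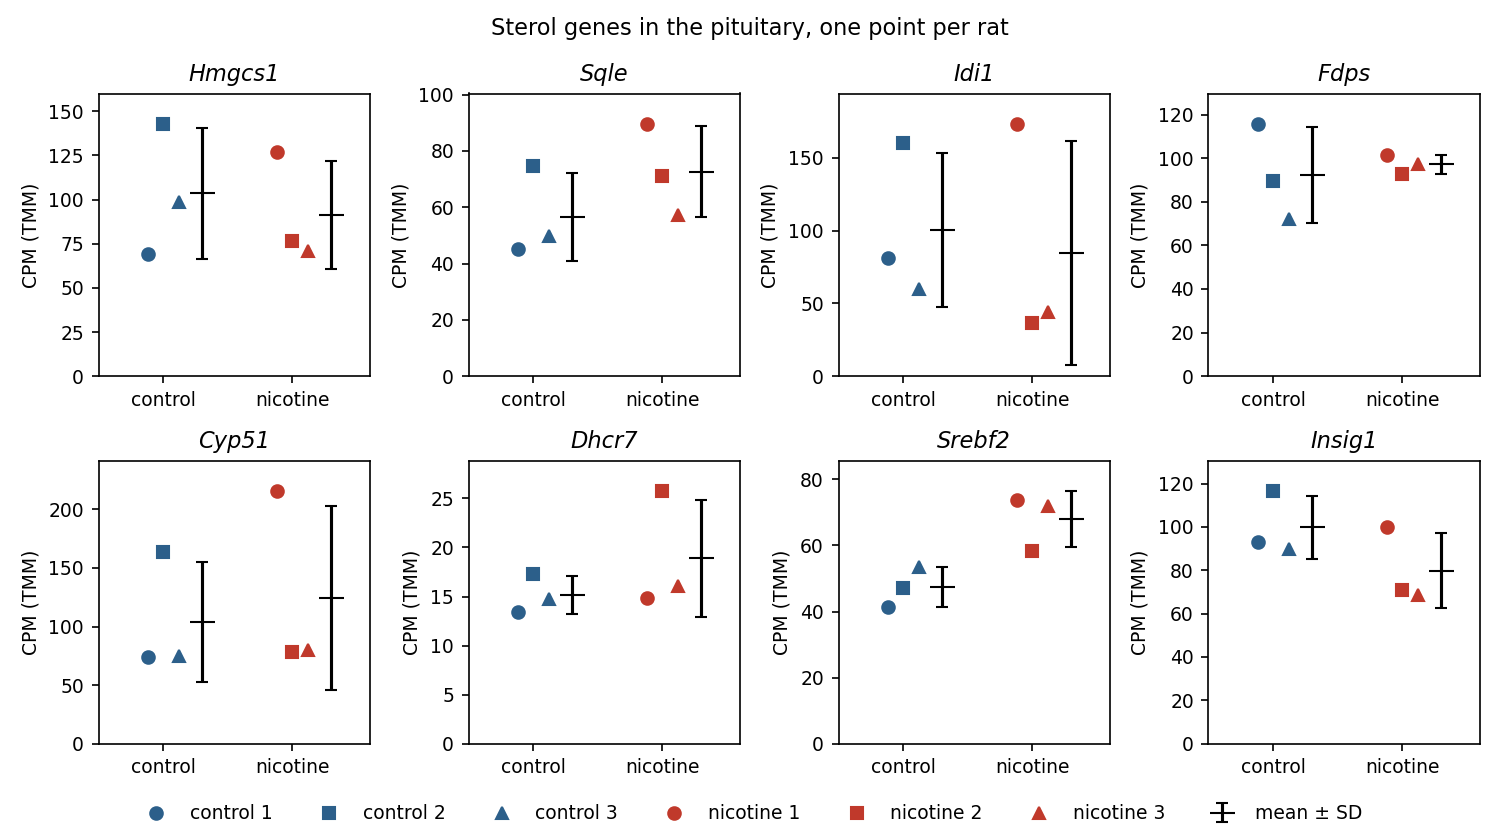
Level of each of the 8 sterol genes in CPM after TMM normalization, 1 point per rat, with the mean and SD of each group of 3 beside the points. Srebf2 is the gene whose groups are apart, while Idi1 and Cyp51 reach 173.3 and 215 CPM in nicotine 1 and 159.8 and 163 CPM in control 2.

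Srebf2, which encodes the transcription factor SREBP2, was at 73.8, 58.4 and 71.9 CPM in nicotine 1, 2 and 3 and at 41.5, 47.0 and 53.6 CPM in control 1, 2 and 3. The lowest nicotine value thus lay above the highest control value. The means were 68.0 ± 8.40 and 47.3 ± 6.06 CPM (SD, n = 3), a ratio of 1.44. The log2 fold change was 0.52 (SE 0.17, 95% interval 0.15 to 0.89), with an unadjusted p of 0.00983 and an adjusted p of 0.845 in edgeR's quasi-likelihood test with Benjamini-Hochberg adjustment over all genes. DESeq2 gave an adjusted p of 0.453 with all libraries. In DESeq2 fits without 1 library, chosen after the data were seen, it was 0.0760 without nicotine 2, at a log2 fold change of 0.62. It was 0.461 without nicotine 1, 0.615 without nicotine 3, 0.99987 without control 1 and 0.809 without control 2. By the exact two-sided permutation test, p was 0.1, the smallest value that 3 libraries against 3 can give. Its spread within groups was small, at the 24.9th percentile of all genes tested. Mir33, a microRNA gene, lies within the span of Srebf2.

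Insig1, the sterol sensor that retains SREBP2, was at 99.8, 70.8 and 68.8 CPM with nicotine and at 93.1, 116.5 and 89.8 CPM in controls. Nicotine 2 and 3 were below all controls, whereas nicotine 1 lay between them. The log2 fold change was -0.32 (SE 0.19, 95% interval -0.74 to 0.09), which the test does not separate from 0 (adjusted p 0.861 in edgeR). It thus had the opposite sign to Srebf2, though neither passed the adjusted threshold. The value was -0.52 without nicotine 1 and -0.20 without control 2.

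Among the enzymes, Hmgcs1 makes HMG-CoA at the entry to the mevalonate pathway. It was at 126.7, 76.6 and 70.9 CPM with nicotine and at 69.1, 143.0 and 98.6 CPM in controls. Nicotine 1 and control 2 were the high libraries, and the groups overlapped. Its log2 fold change was -0.18 (SE 0.29, 95% interval -0.83 to 0.46). It was -0.49 without nicotine 1 and 0.12 without control 2, so that the sign rested on single libraries.

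Idi1 interconverts the isoprenoid diphosphates that are joined to longer chains, and it varied most of the 8 genes. It was at 173.3, 36.6 and 44.1 CPM with nicotine and at 80.9, 159.8 and 60.1 CPM in controls. The highest and the lowest library, both of the nicotine group, differed 4.73 times, and the spread within groups was at the 97.7th percentile of all genes. The log2 fold change of -0.25 (SE 0.75, 95% interval -2.14 to 1.65) had an interval that holds large changes in both directions. Without nicotine 1 it was -1.31, and DESeq2 then called Idi1 (log2 fold change -1.31, adjusted p 0.0667), while without control 2 it was 0.26, without nicotine 2 0.11 and without nicotine 3 0.06. The gene overlaps Wdr37 in the RefSeq annotation, and pseudogene copies of it exist, so that part of its reads may be shared.

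Fdps makes farnesyl diphosphate, the last intermediate that sterols share with prenylated proteins. It was at 101.5, 92.6 and 97.3 CPM with nicotine and at 115.8, 89.5 and 71.9 CPM in controls. The nicotine libraries lay within the range of the controls. Its log2 fold change was 0.07 (SE 0.19, 95% interval -0.33 to 0.48), and -0.08 without control 3. Pseudogene copies are annotated for Fdps too.

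Sqle oxidises squalene, a rate-limiting step on the way to lanosterol. It was at 89.6, 70.9 and 57.3 CPM with nicotine and at 45.2, 74.5 and 49.9 CPM in controls. The mean was higher with nicotine, but control 2 was above 2 of the 3 nicotine libraries. A log2 fold change of 0.36 (SE 0.23, 95% interval -0.14 to 0.85) was found, which was 0.18 without nicotine 1, 0.22 without control 1 and 0.61 without control 2.

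Cyp51 encodes lanosterol demethylase, which opens the conversion of lanosterol to cholesterol. It was at 215, 78.5 and 80.0 CPM with nicotine and at 73.7, 163 and 75.1 CPM in controls. In each group a single library was far above the others, and those others lay between 73.7 and 80.0 CPM in both groups. Its log2 fold change was 0.26 (SE 0.50, 95% interval -0.94 to 1.46), and it went from -0.39 without nicotine 1 to 0.74 without control 2. A pseudogene copy of Cyp51 is annotated.

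Dhcr7 reduces the last intermediate to cholesterol and had the fewest counts of the 8 genes, 363 to 2370 per library. It was at 14.9, 25.7 and 16.1 CPM with nicotine and at 13.4, 17.2 and 14.8 CPM in controls. Nicotine 2 was the high library, and the others lay close to each other. The log2 fold change of 0.32 (SE 0.23, 95% interval -0.17 to 0.81) became 0.02 without nicotine 2.

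**Figure D2:**
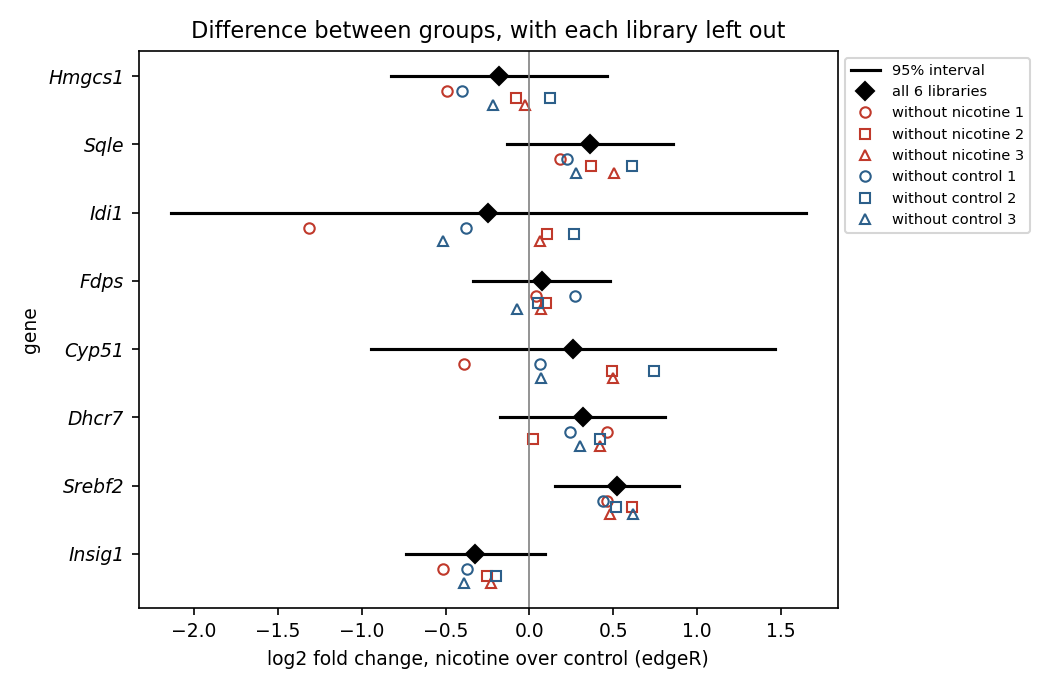
Log2 fold change of nicotine over control from edgeR for each sterol gene on the horizontal axis, with all 6 libraries (diamonds, with the 95% interval as a line) and with each library left out in turn (open symbols). Srebf2 stays between 0.44 and 0.62, whereas Idi1 runs from -1.31 to 0.26 and Cyp51 from -0.39 to 0.74.

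In the summed level of the 8 genes the larger differences ran between rats of the same group, which does not hold for Srebf2 taken singly. Levels of the 8 genes summed to 895, 510 and 506 CPM in nicotine 1, 2 and 3 and to 533, 811 and 514 CPM in control 1, 2 and 3. Nicotine 1 and control 2 were thus high, and the other 4 libraries lay between 506 and 533 CPM whatever their group. Hmgcs1, Sqle, Idi1, Cyp51 and Insig1, 5 of the 8 genes, were highest of their group in both nicotine 1 and control 2, against 10.4% of all genes tested. Fdps, Dhcr7 and Srebf2 did not share this profile. This comparison was chosen after the values were seen, and it has no test. The summed anterior pituitary markers were lowest of their group in nicotine 1 and control 2, at 114219 and 146455 CPM. That sum rests mainly on Gh1, Prl and Pomc, and single markers, named after their values were seen, differed. Gh1 was at 69810 CPM in control 2 but at 52651 CPM in control 3. Pitx1 was the 1 of 12 markers that was highest of its group in both libraries, at 117 and 91.0 CPM. The part of these markers in the sterol values was not tested.

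Over the 6 libraries, Pearson's r of a gene with the mean log2 CPM of the other 7 was 0.99 for Cyp51 (Spearman's rho 0.60). It was 0.83 (rho 0.54) for Hmgcs1, 0.78 (rho 0.49) for Sqle, 0.74 (rho 0.43) for Idi1 and 0.64 (rho 0.43) for Insig1. For Srebf2 it was 0.10 (rho -0.03), for Fdps 0.01 (rho -0.26) and for Dhcr7 -0.21 (rho -0.37). These values rest on nicotine 1 and control 2, and the points share the depth and RNA of a library. Taken singly, Srebf2 had an r of 0.53 (rho 0.60) with Sqle, 0.30 (rho 0.66) with Cyp51, 0.06 (rho 0.20) with Hmgcs1 and -0.10 (rho -0.03) with Idi1.

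**Figure D3:**
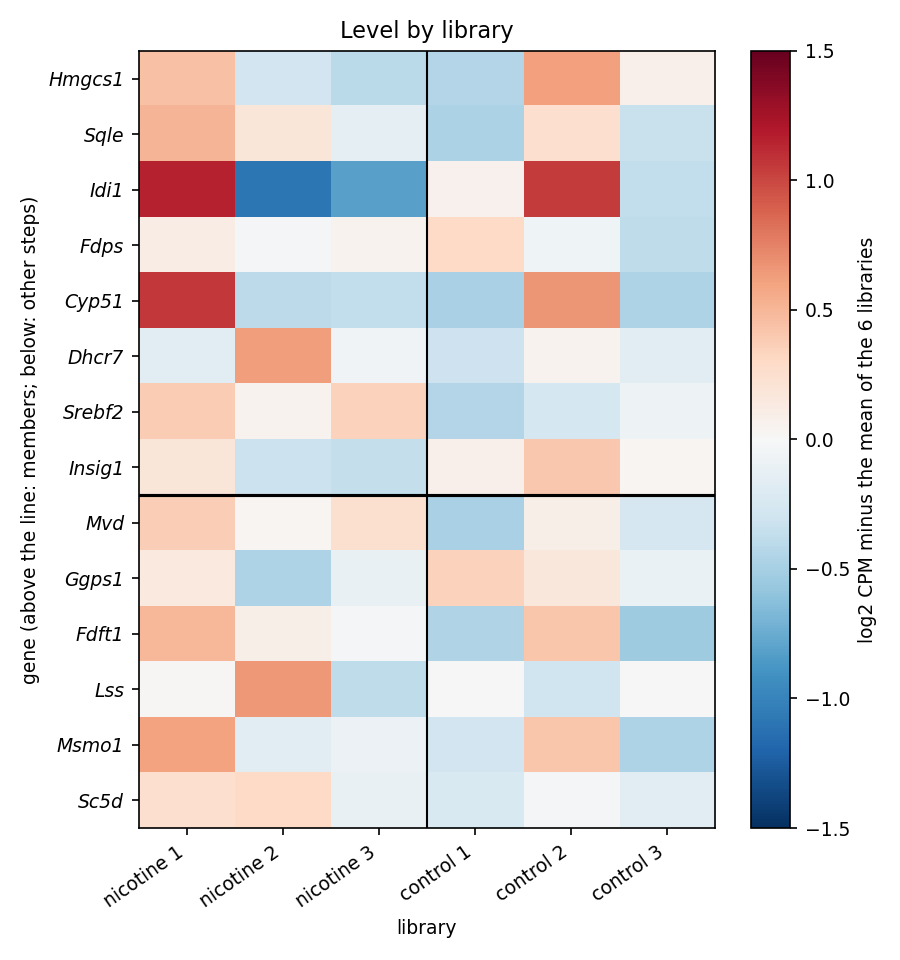
Log2 CPM of each gene minus its mean over the 6 libraries, as colour from -1.5 (blue) to 1.5 (red), with libraries in columns, the 8 sterol genes above the horizontal line and 6 further genes of the pathway named in the text below it. Red cells in nicotine 1 and control 2 show the shared profile of Idi1, Cyp51 and Hmgcs1, and red cells in nicotine 2 that of Dhcr7 and Lss.

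Genes outside the 8 whose profile was most like their mean were Eva1c (r 0.99, Spearman's rho 0.66), Aen (r 0.99, rho 0.89), Bag2 (r 0.99, rho 0.60), Tmem165 (r 0.99, rho 0.94), Mex3d (r 0.98, rho 0.94) and Midn (r 0.98, rho 0.83), over 6 libraries. They are the highest values among 17284 genes, of which 458 (2.65%) had an r over 0.8. Bag2, a co-chaperone, was at 80.2, 14.4 and 16.3 CPM with nicotine and at 17.9, 54.8 and 16.5 CPM in controls. Its rank correlation was lower than r, and its high libraries were again nicotine 1 and control 2. Some further enzymes, named after their values were seen, had the same high libraries, but most of the lists described below did not. Nicotine 1 and control 2 were each highest of their group in 3 of 8 mevalonate steps and 2 of 10 sterol ring steps. The same held for 5 of 15 fatty acid genes, against 10.4% of all genes tested. Msmo1, a demethylase of the sterol ring, was at 146 and 127 CPM in nicotine 1 and control 2 and at 69.3 to 89.7 CPM in the other libraries. Fdft1, which makes squalene, was at 120 and 114 CPM against 59.0 to 90.7 CPM. Lpin1, a phosphatidate phosphatase and target of SREBP, was at 67.9 and 60.8 CPM against 33.9 to 51.4 CPM.

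Nicotine 2 carried another profile. Dhcr7 was highest there, and so were, named after their values were seen, Lss, which closes the ring of lanosterol, at 98.8 CPM (48.2 to 63.3 CPM elsewhere), and Fasn, the fatty acid synthase, at 284 CPM (122 to 178 CPM elsewhere). Since nicotine 2 also stood apart over all genes, the part of this in the values was not tested.

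The rest of the pathway was described by 7 lists of genes. By edgeR and by DESeq2, 0 genes were called in each of them. The medians near 0, those of the mevalonate, sensing, uptake and isoprenoid lists, changed sign when some single library was left out, and the uptake and isoprenoid medians also with library sizes alone as scaling. Of the mevalonate steps all 8 listed genes were tested, 0 had an unadjusted p under 0.05 and the median log2 fold change was 0.06. The smallest p values were those of Mvd, which makes isopentenyl diphosphate (0.41, SE 0.20, unadjusted p 0.0597, adjusted p 0.861 in edgeR), and of Ggps1, which makes geranylgeranyl diphosphate (-0.27, SE 0.20, but -0.43 without nicotine 1, -0.14 without nicotine 2 and -0.17 without control 1). Of the sterol ring steps 10 genes were tested, and the median of this list was 0.21, but 0.06 without nicotine 1, 0.07 without nicotine 2, 0.11 without control 3 and 0.09 with limma voom and quality weights. Sc5d, the desaturase, was at 79.7, 82.7 and 61.9 CPM with nicotine and 57.2, 65.6 and 59.8 CPM in controls.

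Of 14 genes of sterol sensing and SREBP processing, 1 was higher and 1 lower at an unadjusted p under 0.05, and the median was 0.01. Srebf1, the paralogue of Srebf2 that drives fatty acid synthesis, was at 59.3, 69.8 and 81.1 CPM with nicotine and at 45.6, 55.2 and 35.7 CPM in controls. Its groups did not overlap, as for Srebf2, and its log2 fold change was 0.62 (SE 0.20, unadjusted p 0.00803, adjusted p 0.845 in edgeR). Mbtps2, the protease that makes the second cut in SREBP, was at 15.1, 14.5 and 15.0 CPM with nicotine and at 20.8, 18.7 and 17.8 CPM in controls. Its log2 fold change was -0.36 (SE 0.16, unadjusted p 0.0475, adjusted p 0.861 in edgeR). Mbtps1, the protease of the other cut, and Scap, the escort of SREBP, named after their values were seen, had log2 fold changes of 0.12 (SE 0.17) and 0.36 (SE 0.19). None of these genes passed the adjusted threshold.

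For uptake and trafficking of cholesterol, 14 of 15 listed genes were tested, 1 was higher and 0 were lower at an unadjusted p under 0.05, and the median was close to 0, at -0.00078. Lrp8, a receptor for apolipoprotein E, was at 19.96, 21.2 and 28.1 CPM with nicotine and at 17.7, 13.6 and 15.9 CPM in controls, with no overlap (log2 fold change 0.56, SE 0.19, unadjusted p 0.0132, adjusted p 0.845 in edgeR). Scarb1, the receptor for high-density lipoprotein, had a log2 fold change of 0.44 (SE 0.21), with its highest value again in nicotine 2, at 40.4 CPM against 19.8 to 28.0 CPM, and 0.17 without that library. For efflux, oxysterols and storage 12 genes were tested, 0 had an unadjusted p under 0.05 and the median was 0.15. Cyp27a1, a sterol hydroxylase, was at 23.3, 33.8 and 23.0 CPM with nicotine and 19.3, 22.4 and 19.0 CPM in controls. Nr1h2, which encodes an oxysterol receptor, was at 34.5, 36.5 and 34.9 CPM with nicotine and 28.1, 30.9 and 27.4 CPM in controls. The groups overlapped for neither gene.

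Among 15 fatty acid genes driven by SREBP1, 1 was higher and 0 were lower at an unadjusted p under 0.05, with a median of 0.25 and positive signs in 13, against 8853 of all 17292 genes. This median was 0.12 without nicotine 2, 0.15 without control 1, 0.16 without control 3 and 0.081 with limma voom and quality weights. Fads1, a fatty acid desaturase, was at 48.5, 58.8 and 48.5 CPM with nicotine and at 41.2, 38.8 and 39.04 CPM in controls (log2 fold change 0.39, SE 0.16, unadjusted p 0.0297, adjusted p 0.861 in edgeR). Fads2, another desaturase, had a log2 fold change of 0.34 (SE 0.18), with nicotine 3 below control 1, and 0.16 without nicotine 2, its highest library at 127 CPM. In the isoprenoid branch 11 genes were tested, 0 were higher and 1 was lower at an unadjusted p under 0.05, and the median was -0.02. Rabggtb, a subunit of the enzyme that prenylates Rab proteins, was at 115, 74.7 and 119 CPM with nicotine and at 159.8, 135 and 137 CPM in controls (log2 fold change -0.48, SE 0.20, unadjusted p 0.0317, adjusted p 0.861 in edgeR), and -0.30 without nicotine 2. Coq2, which prenylates the precursor of ubiquinone, was at 32.0, 29.9 and 30.0 CPM with nicotine and 37.4, 32.1 and 38.1 CPM in controls.

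**Figure D4:**
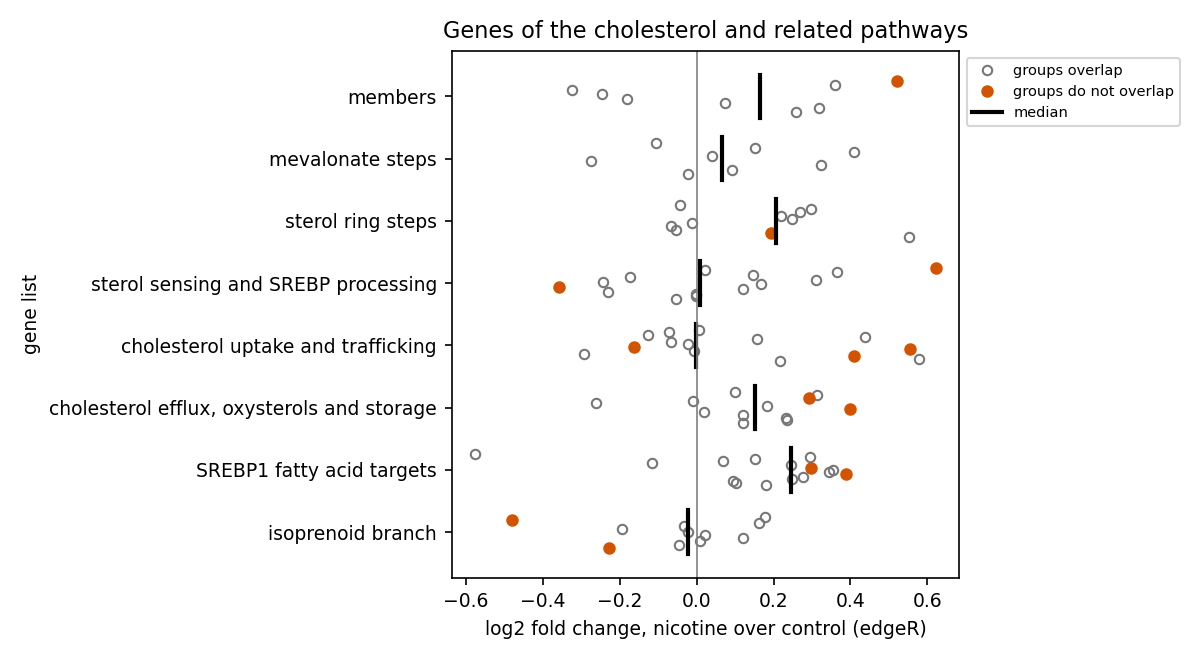
Log2 fold change of nicotine over control from edgeR, 1 circle per gene, for the 8 sterol genes (members) and 7 further lists, with filled circles where the 3 nicotine and 3 control libraries do not overlap and a bar at the list's median. The heights of circles within a list only spread them, and the medians lie between -0.02 for the isoprenoid branch and 0.25 for fatty acid genes.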

How the data were processed

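The authors extracted total RNA from pituitary glands, prepared strand-specific libraries and sequenced paired ends of 100 bases. Per the labels, reads were mapped to the rat build rn7 with HISAT2 2.1.0 and assigned to genes with featureCounts, and the deposited values are raw counts per gene symbol, with no normalization. The strand setting, the handling of reads with several positions and whether reads or pairs were counted are not given in the sources used here, so that reads of overlapping genes or pseudogenes may be shared. The authors compared groups with DESeq2.

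Versions were DESeq2 1.42.0, limma 3.58.1 and edgeR 4.0.16 in R 4.3.3. Of 33294 symbols, 17292 were kept by filterByExpr. Counts were scaled by TMM, tested with edgeR's quasi-likelihood test (robust) without covariates and adjusted by the Benjamini-Hochberg method over all genes tested. Calls needed a fold change over 1.5 with an adjusted p under 0.1. The common biological coefficient of variation was 23.6%. Levels are CPM after TMM. Correlations, distances and permutation tests used log2 CPM with a prior count of 2. Each library is a different rat, and no 2 libraries held the same counts. The procedure was tested on simulated counts.

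The 8 genes and all gene lists were chosen with earlier results of these data known. Besides them, the text names the 2 genes of each list with the smallest p and the 6 genes most like the mean of the 8 genes, and any other gene is said to be named after its values were seen. Of the genes so chosen, 1 is not reported here. Alternatives to the test were DESeq2, limma voom with quality weights, no robust estimation and a replicate block. Scaling was by RLE, by library size or on counts thinned to the smallest library, the filter was dropped or set to 10 counts in all libraries, genes over 1% of the counts were removed, and each library was left out. DESeq2 without each library, and leaving out nicotine 1 and control 2 together, were chosen after seeing the data.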

Additional observations from a re-analysis of the deposited data

How the results depend on the processing

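Among the 22 genes chosen by rule and tested in 506 comparisons with alternatives, 492 kept their direction and their side of the threshold, 12 changed sign and 2 passed the threshold only in the alternative. All 12 sign changes came from leaving out a single library, over which the log2 fold change lay between -0.49 and 0.14 for Hmgcs1, -1.31 and 0.28 for Idi1, -0.076 and 0.27 for Fdps, and -0.39 and 0.76 for Cyp51. The number of sterol genes called was 0 in edgeR under all alternatives, and 0 to 1 with DESeq2 when a library was left out, 1 each without nicotine 1 (Idi1) and without nicotine 2 (Srebf2), where DESeq2 called 89 and 120 genes over the whole table. In the 7 lists it was 0 to 1, with 1 gene of the uptake list called without nicotine 3, where 185 genes were called in all. The median log2 fold change of the 8 genes, 0.17 with all libraries, lay between -0.18 without nicotine 1 and 0.36 without control 2. With 1 library left out, the list medians in edgeR lay between -0.02 and 0.22 for the mevalonate steps and 0.06 and 0.26 for the sterol ring. They lay between -0.02 and 0.10 for sensing, 0.02 and 0.08 for uptake and 0.14 and 0.21 for efflux. For fatty acids they lay between 0.12 and 0.36, and for isoprenoids between -0.11 and 0.04. Other alternatives went beyond these ranges. The uptake median was -0.01 with a replicate block, and the efflux median was 0.12 on thinned counts and 0.22 with limma voom and quality weights. With limma voom and quality weights the median of the 8 genes was 0.09, and the values of Idi1 (-0.49), Cyp51 (0.14), Dhcr7 (0.09), Sc5d (0.20), Cyp27a1 (0.22) and Fads2 (0.21) moved by over 1.5 times. A replicate block gave -0.49 for Idi1, and library sizes alone gave 0.13 for Fdps. Without nicotine 1 and control 2 together, 0 sterol genes were called and their median log2 fold change was 0.05. The mean r of a sterol gene with the other 7 then went from 0.48 to -0.70. In the libraries that remained, the mean log2 CPM of the 8 genes was nearly level, at 5.83 to 5.89. With so level a mean, a gene that rises is set against a fall of the others, which makes r negative by construction. This r thus does not describe how the genes go together. The replicate number did not pair the rats (correlations of deviations 0.03, -0.20 and -0.08), and with a replicate block 0 sterol genes were called and their median log2 fold change was 0.14. The least covered value of the 8 genes rests on 363 counts, and each group holds 3 rats.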

Other observations

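A few genes of other functions, picked out of all genes after their values were seen, were lowest or highest of their group in both nicotine 1 and control 2. Of all 17292 genes tested, 10.4% were highest of their group in both, and the share that was lowest in both was not counted. Hspa5 and Eif2ak3 were lowest there, and Dnajb1 and Per1 highest. Hspa5, a chaperone of the endoplasmic reticulum, was at 1666 and 1764 CPM in those libraries and at 1973 to 2116 CPM in the other 4. Eif2ak3, a sensor of unfolded proteins in the same compartment, was at 41.3 and 39.6 CPM against 48.0 to 53.1 CPM. Dnajb1, a heat shock co-chaperone, was at 123 and 96.3 CPM against 52.5 to 69.6 CPM, and Per1, a gene of the circadian clock that also responds to glucocorticoids, at 25.8 and 51.1 CPM against 10.4 to 21.6 CPM. None of the 4 was called between the nicotine and control groups by edgeR.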
